A study of Mus musculus with 2 samples.

Results

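The genes described here encode the proteins of the large (60S) subunit of the cytosolic ribosome. They were taken by symbol (Rpl followed by a number, with the letter forms of that series, and Rplp0, Rplp1 and Rplp2), which gave 51 of the 23924 gene symbols in the deposited table. Of the 51, 46 encode standard subunit proteins and 5 are tissue-specific or divergent paralogues (Rpl3l, Rpl7l1, Rpl10l, Rpl22l1 and Rpl39l). The table reports RNA recovered by immunoprecipitation from nuclear extracts of RAW 264.7 cells, a mouse macrophage line. There were 2 libraries, 1 made with an anti-nucleolin antibody and 1 with rabbit IgG as the background control, called the nucleolin and the IgG immunoprecipitate (IP) below. Cells of both libraries carried the same treatments, depletion of mRrp6 (product of Exosc10, a ribonuclease of the nuclear exosome) and 80 ng/ml LPS for 12 h, so neither untreated nor undepleted cells enter the comparison. With 1 library per group, no difference below has a replicate check and no test between groups was made.

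The large subunit joins amino acids into protein. Its proteins fold around the large ribosomal RNAs in the nucleolus, and the mature particle carries the peptidyl transferase centre, the tunnel through which the new chain leaves, and a flexible stalk that recruits the GTPases of translation. Ribosomal protein mRNAs are among the most abundant of a growing cell and typically start with a C followed by a run of pyrimidines, the 5′ terminal oligopyrimidine (TOP) motif, which lets their translation be switched as a class. Nucleolin is a nucleolar RNA-binding protein with roles in ribosomal RNA production, and the series was made to find the transcripts it associates with.

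The start-site windows of 9 members are printed because the TOP class is the sequence feature that these genes share and that the choice by symbol did not use. Each window runs from 40 bases before to 20 bases at and after a RefSeq start of the gene (assembly GRCm38.p6, whose primary sequence is mm10). For Rpl5 that start lies inside the gene span, downstream of its first base. Windows read 5′ to 3′ on the gene's strand, and capitals mark the longest run of C and T, the first one where runs tie.
Rplp0 (chr5:115559427-115559486, plus strand): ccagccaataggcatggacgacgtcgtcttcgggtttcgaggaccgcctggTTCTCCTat
Rplp2 (chr7:141447611-141447670, plus strand): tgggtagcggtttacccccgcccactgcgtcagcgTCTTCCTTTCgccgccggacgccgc
Rpl12 (chr2:32961672-32961731, plus strand): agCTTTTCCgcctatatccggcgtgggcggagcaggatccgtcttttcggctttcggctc
Rpl5 (chr5:107900488-107900547, plus strand): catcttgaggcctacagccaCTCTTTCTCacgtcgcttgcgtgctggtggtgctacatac
Rpl11 (chr4:136053374-136053433, minus strand): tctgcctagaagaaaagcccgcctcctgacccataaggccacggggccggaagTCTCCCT
Rpl4 (chr9:64173347-64173406, plus strand): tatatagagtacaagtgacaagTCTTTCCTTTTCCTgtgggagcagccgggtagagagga
Rpl27a (chr7:109519155-109519214, plus strand): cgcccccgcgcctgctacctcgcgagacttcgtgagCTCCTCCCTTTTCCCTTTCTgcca
Rpl24 (chr16:55966235-55966294, plus strand): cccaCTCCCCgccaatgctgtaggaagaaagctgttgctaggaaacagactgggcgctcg
Rpl35 (chr2:39005112-39005171, minus strand): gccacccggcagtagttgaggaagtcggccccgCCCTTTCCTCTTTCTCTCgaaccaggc

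The run spans the annotated start in Rplp2, Rpl27a and Rpl35, and lies upstream of it in Rpl4. In Rpl5 the run lies upstream of the start used for the window, but begins at base 107900508, where the RefSeq gene span begins. In the other 4 windows the longest run was under 8 bases. It lay downstream of the start in Rplp0 and in Rpl11, where the window edge cut it, and farther upstream in Rpl24. In Rpl12 the marked run of 7 bases lay farther upstream, and tcttttc, of the same length, began just after the start. The RefSeq promoter table held 46 windows for 39 of the 51 genes. The motif CTTTC occurred on the gene's strand in 17 of these 46 windows (37.0%), against 8.11% of all 32851 windows in that table, and its reverse complement GAAAG in 2 of 46 (4.35%), against 7.21%. A run of at least 8 pyrimidines was present in 24 of 46 member windows (52.2%), against 24.2% of all windows, and such runs can contain CTTTC. By level in the libraries, CTTTC stood in 11 of 24 windows of genes listed in both libraries, in 1 of 6 of genes listed in the IgG IP only and in 1 of 2 of genes listed in the nucleolin IP only. These matches describe the annotated windows and do not show where transcription started in these cells.

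Before the gene levels are given, the number of fragments behind them is needed, because it was small. Levels are in FPKM, that is fragments per kilobase of transcript, scaled to a common sequencing depth. For genes with 1 row in the table, the FPKM values could be matched to whole read numbers at a whole-number transcript length. That length was solved together with the reads, and was taken from the annotation only for 11 single-exon genes used to fit the scaling. The fit returned the totals to which the libraries had been scaled, 60896 fragments in the nucleolin IP and 23669 in the IgG IP (each fragment is called a read below). Whether these totals are all mapped fragments of a library is not known. In a transcript of 1000 bases a single read was worth 21.4 FPKM in the nucleolin IP and 53.0 FPKM in the IgG IP. In one of 500 bases it was worth 61.8 FPKM in the nucleolin IP and 142 FPKM in the IgG IP. Whole read numbers were recovered for 2120 of 2195 one-row genes (96.6%), of which 67.3% rested on 1 read in all. For the large subunit genes all 33 measured members with 1 row were resolved, each with 1 solution. A read is not necessarily an independent molecule, so the intervals below, which are exact (Clopper-Pearson, 95%), cover counting error only. A gene listed at 0 was taken as 0 reads in that library.

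**Figure D1:**
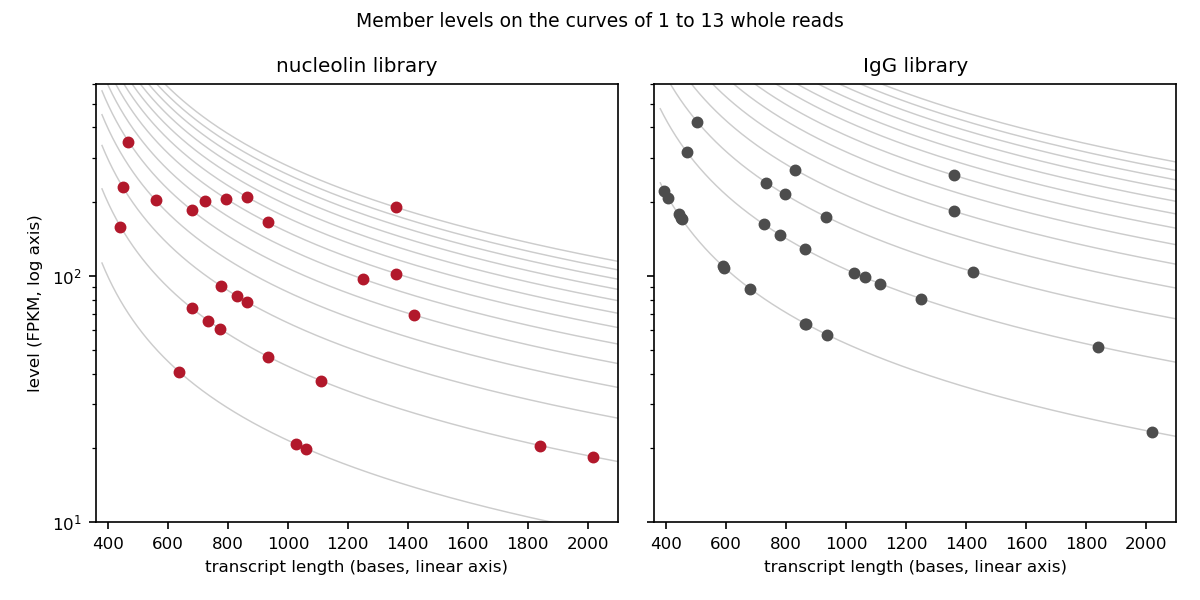
Level (FPKM, log axis) against the transcript length recovered from the table (bases) for the 33 resolved members, nucleolin IP at left and IgG IP at right, with 1 point per member that had a read. Grey curves are the levels that 1 to 13 whole reads give at each length, lowest curve for 1 read. Every point lies on a curve by construction, because its length was computed from its level and read number. The uppermost curve reached is that of 13 reads, by Rplp0 in the nucleolin IP.

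Of the 51 genes, 36 (70.6%) reached 1 FPKM in at least 1 library and are called measured, against 13.4% of all gene symbols. In the nucleolin IP 28 members were listed, from 18.4 to 350 FPKM with a median of 86.6 FPKM, against a median of 7.94 FPKM for all listed genes. In the IgG IP 32 were listed, from 23.3 to 421 FPKM with a median of 137 FPKM, against 18.4 FPKM for all listed genes. The member medians were thus higher on the FPKM scale, on which 1 read of a short transcript counts for much. In reads the 33 resolved members had a median of 2 in the nucleolin IP and 2 in the IgG IP. In 24 of the 36 (66.7%) a value was present in both libraries, against 16.8% of all 3194 genes compared. Another 4 (11.1%) were listed in the nucleolin IP only, against 37.1% of all genes, and 8 (22.2%) in the IgG IP only, against 46.0%.

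**Figure D2:**
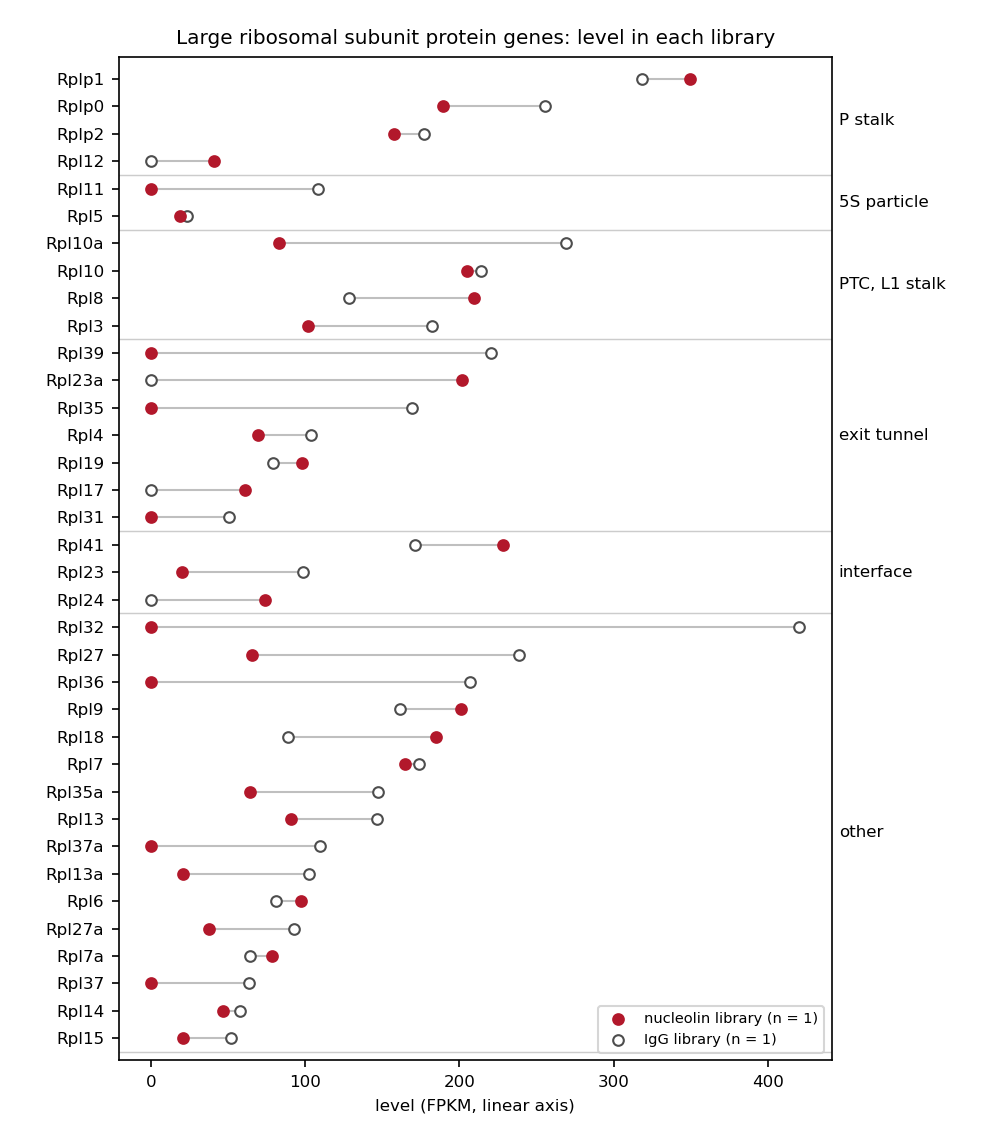
Level of the 36 measured large subunit genes (FPKM, linear axis) in the nucleolin IP (filled red) and the IgG IP (open), 1 library each, grouped by the place of the protein in the subunit; grey lines join the values of 1 gene and there are no error bars because there are no replicates. Points at 0 mark the 8 genes listed in the IgG IP only and the 4 listed in the nucleolin IP only, and Rpl32 at 421 FPKM is the highest IgG value.

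On the log2 scale with 1 FPKM added to each value, 5 of the 36 were 2-fold or more higher in the nucleolin IP, 15 2-fold or more lower and 16 closer than 2-fold. Over all genes compared, 37.8% were that much higher and 56.7% that much lower, and the members' shares, 13.9% and 41.7%, lay below both. With a pseudocount of 10 FPKM in place of 1 the shares of all genes were 13.7% higher and 39.4% lower, against 11.1% and 41.7% of the members, so the distance from all genes depended on the pseudocount. Of the 5 higher members 4 were listed at 0 in the IgG IP, and of the 15 lower ones 8 were listed at 0 in the nucleolin IP. Over all genes compared, 1206 were higher while 1186 were listed in the nucleolin IP only. Another 1812 were lower while 1470 were listed in the IgG IP only, so these shares largely follow listing in 1 library. The median log2 ratio of the 36 members was -0.51, against -1.27 over all genes compared. Over the 24 members listed in both libraries it was -0.31, against -1.19 over the 538 genes listed in both. The summed level of the 51 genes was 3177 FPKM in the nucleolin IP and 4775 FPKM in the IgG IP. That sum was 1.50 times higher in the IgG IP. For 2064 other protein coding genes with recovered read numbers the sum was 3.33 times higher in the IgG IP. Over all gene symbols the sum was instead 1.90 times higher in the nucleolin IP. For no resolved member did the 95% interval of the FPKM ratio exclude 1.

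The direction of the group as a whole depended on the scale. With 1 read set equal in both libraries instead of the deposited depth scaling, 16 members were 2-fold or more higher in the nucleolin IP and 8 lower, beside 40.6% and 46.9% of all genes, and the median log2 ratio was 0.85. Centred on the median of all genes compared, 15 stood above and 8 below the 2-fold lines, beside 40.2% and 46.5% of all genes, and the median was 0.76. The 4 genes listed in the nucleolin IP only and the 8 listed in the IgG IP only do not depend on this choice.

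In reads, the 33 resolved members held 104 in the nucleolin IP and 61 in the IgG IP. The nucleolin IP thus supplied 63.0% of them (interval 55.2 to 70.4%). It supplied 47.3% (45.8 to 48.9%) of the 1881 nucleolin and 2093 IgG reads of 2064 other resolved protein coding genes, and it held 72.0% of the 84565 fragments to which the libraries were scaled. Relative to those totals, the members took 17.1 reads per 10000 fragments in the nucleolin IP and 25.8 in the IgG IP, a ratio of 0.663 (0.479 to 0.925). Other coding genes took 309 per 10000 in the nucleolin IP and 884 in the IgG IP, a ratio of 0.349 (0.328 to 0.372). Among genes listed in both libraries these shares lay closer, at 64.6% for 22 members (56.3 to 72.3%) and 59.9% for 325 other coding genes (57.4 to 62.4%), with overlapping intervals. These shares compare the 2 libraries only.

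**Figure D3:**
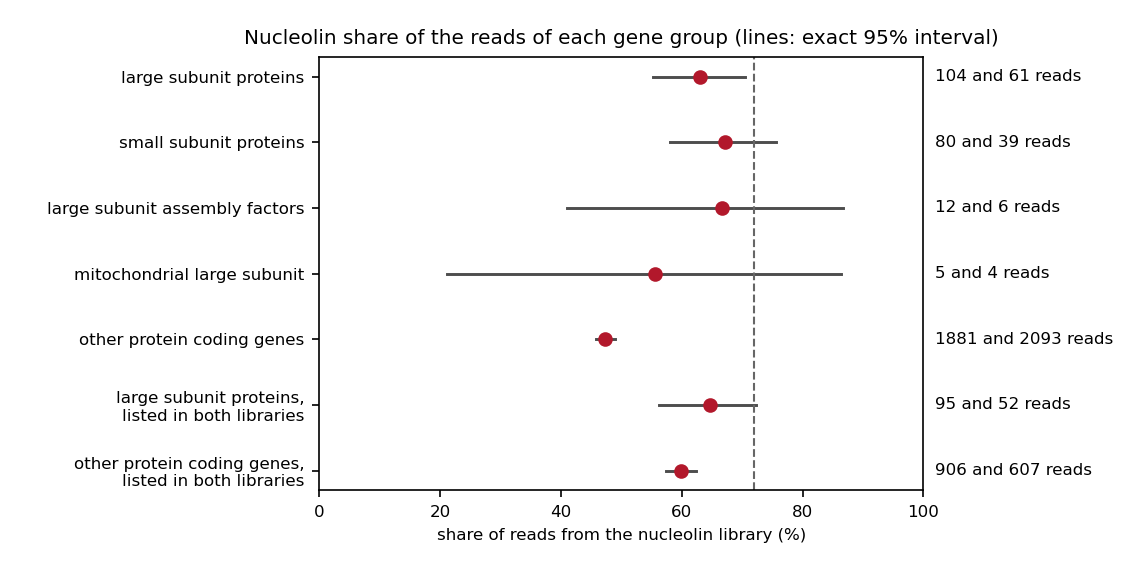
Share of each gene group's reads that came from the nucleolin IP (percent), with exact 95% intervals as lines; the numbers at right are nucleolin and IgG reads, and the dashed line at 72.0% is the nucleolin share of the fragment totals to which FPKM was scaled. Large subunit proteins stand at 63.0% and other protein coding genes at 47.3%, while among genes listed in both libraries they stand at 64.6% and 59.9%.

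Markers of other cell types moved with the library. Of 6 epithelial markers 5 were listed, all at 0 in the nucleolin IP and at 20.1 to 185 FPKM in the IgG IP (Epcam was at 0 in both), and all 5 gastric secretory markers were at 0 in the nucleolin IP and summed to 15049 FPKM in the IgG IP. Of the macrophage markers 8 were measured, with a sum of 676 FPKM in the nucleolin IP and 666 FPKM in the IgG IP. Lyz2, Csf1r, Itgam and Coro1a were at 0 in the IgG IP and Ptprc in both. The other measured macrophage markers were listed in both libraries. Cd68 was at 16.2 FPKM in the nucleolin IP and 138 FPKM in the IgG IP, and Tyrobp at 49.4 and 116 FPKM. Cd14 was at 207 FPKM in the nucleolin IP and 319 FPKM in the IgG IP, and Fcer1g at 116 and 92.8 FPKM. How far RNA of other cells enters the IgG levels of ribosomal protein genes was not tested. Without all 3 marker lists the nucleolin share of other coding genes was 48.4%. Ncl, which encodes nucleolin, had 3 reads in the nucleolin IP and 1 in the IgG IP, and Exosc10 had 1 in the nucleolin IP and 0 in the IgG IP.

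The P stalk holds the member with the most reads. Rplp0, the stalk's core protein that anchors the other stalk proteins to the subunit (chromosome 5, 115559467 to 115563729), was at 190 FPKM in the nucleolin IP and 256 FPKM in the IgG IP, from 13 and 7 reads on a transcript of 1360 bases. Its reads were the most of any member in each library, and its FPKM ratio of 0.742 had an interval from 0.275 to 2.20. Rplp1 and Rplp2 are the acidic proteins that bind Rplp0 as dimers and contact elongation factors. Rplp1 (chromosome 9, 61913283 to 61914510) was at 350 FPKM in the nucleolin IP, the highest member there, and 318 FPKM in the IgG IP, from 5 and 2 reads on only 468 bases. Rplp2 (chromosome 7, 141447651 to 141451359) was at 158 FPKM in the nucleolin IP and 177 FPKM in the IgG IP, from 2 reads and 1 read. The genes of all 3 stalk proteins were thus listed in both libraries, and the ratio intervals of Rplp1 (0.181 to 11.6) and Rplp2 (0.0466 to 52.9) were wide. With 1 read set equal the log2 ratios of Rplp0, Rplp1 and Rplp2 were 0.93, 1.50 and 1.19 in place of -0.43, 0.13 and -0.17. Rpl12, at the base of the stalk, was at 40.7 FPKM in the nucleolin IP from 1 read and listed at 0 in the IgG IP. Together these 4 genes held 21 reads in the nucleolin IP and 10 in the IgG IP, and their summed levels were 738 FPKM in the nucleolin IP and 751 FPKM in the IgG IP.

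Rpl5 and Rpl11 form a particle with 5S ribosomal RNA before they join the subunit, and the free particle is known to restrain Mdm2, the inhibitor of p53. Rpl5 (chromosome 5, 107900508 to 107909005) was the lowest listed member, with 18.4 FPKM in the nucleolin IP and 23.3 FPKM in the IgG IP, from 2 reads and 1 read on the longest recovered transcript, 2019 bases. Rpl11 (chromosome 4, 136049354 to 136053393) was listed at 0 in the nucleolin IP and at 108 FPKM in the IgG IP, which was 1 read on 594 bases. With 2 reads in each library for the pair, no difference was detectable at this depth.

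Around the peptidyl transferase centre, 4 of 5 genes were measured, all in both libraries, with 25 reads in the nucleolin IP and 14 in the IgG IP. Rpl8 was at 209 FPKM in the nucleolin IP and 128 FPKM in the IgG IP, from 8 and 2 reads. Its protein lies close to the catalytic centre, and its ratio of 1.63 was the second highest among members listed in both, with an interval from 0.326 to 15.8. Rpl10, whose protein joins late in the cytoplasm and completes the centre, was level at 205 FPKM in the nucleolin IP and 214 FPKM in the IgG IP, from 7 and 3 reads. Rpl3, one of the earliest proteins to assemble, was at 102 FPKM in the nucleolin IP and 182 FPKM in the IgG IP, from 7 and 5 reads. Rpl10a, the protein of the L1 stalk that guides departing tRNA, stood lower, with 82.7 FPKM in the nucleolin IP and 269 FPKM in the IgG IP. It had 3 reads in the nucleolin IP and 4 in the IgG IP, and its ratio interval ran from 0.0450 to 1.81. Rpl36a, at the tRNA exit site, was listed at 0 in both libraries.

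The genes of the exit tunnel and its rim were split between the libraries. Rpl23a, at the rim where the signal recognition particle docks (chromosome 11, 78180935 to 78183584), was at 202 FPKM in the nucleolin IP and listed at 0 in the IgG IP. It had 4 reads, the most of any member listed in 1 library only. Rpl17, which lines the tunnel, was at 60.7 FPKM in the nucleolin IP from 2 reads and at 0 in the IgG IP. Rpl35, another rim protein, was at 0 in the nucleolin IP and 169 FPKM in the IgG IP, and Rpl39, a very short protein inside the tunnel, was at 0 in the nucleolin IP and 221 FPKM in the IgG IP. Each of these IgG values was 1 read, on 452 and 394 bases, and at such lengths 1 read is worth a high FPKM. Rpl4, whose loop forms the tunnel's narrowest point, was in both libraries at 69.1 FPKM in the nucleolin IP and 104 FPKM in the IgG IP, from 5 and 3 reads. Rpl19 was at 97.8 FPKM in the nucleolin IP and 78.9 FPKM in the IgG IP, and Rpl31 was at 0 in the nucleolin IP and 50.5 FPKM in the IgG IP. Both have several table rows and their reads were not resolved. Rpl22 was listed at 0 and Rpl26 below 1 FPKM in both.

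At the interface with the small subunit, Rpl41, the smallest ribosomal protein, was at 228 FPKM in the nucleolin IP and 171 FPKM in the IgG IP, from 3 reads and 1 read on 449 bases. Rpl24, which reaches across to the small subunit, was at 73.8 FPKM in the nucleolin IP from 2 reads and at 0 in the IgG IP. Rpl23 had the lower level in the nucleolin IP, with 19.8 FPKM in the nucleolin IP and 98.3 FPKM in the IgG IP, from 1 and 2 reads on 1062 bases. Its interval, 0.00342 to 3.88, rests on 3 reads in all. Rpl30 was at 0.0306 FPKM in the nucleolin IP and 0 in the IgG IP.

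Among the remaining proteins of the subunit's body and surface, 16 of 22 genes were measured, 1 of them 2-fold or more higher (6.25%, against 37.8% of all genes) and 9 that much lower in the nucleolin IP (56.2%, against 56.7% of all genes). The share of lower genes was thus that of the background. The higher one was Rpl18, with 185 FPKM in the nucleolin IP and 88.7 FPKM in the IgG IP, from 5 reads and 1 read on 679 bases (ratio 2.08, interval 0.233 to 98.4). Rpl32 (chromosome 6, 115805514 to 115808743) had the highest member level in the IgG IP, 421 FPKM, and was listed at 0 in the nucleolin IP. It rested on 3 IgG reads on 504 bases, and its interval reached up to 1.05, the nearest of any member to excluding equal levels. Rpl36, Rpl37a and Rpl37 were at 0 in the nucleolin IP and at 207, 110 and 63.6 FPKM in the IgG IP, each from 1 read. The other 5 of the 9 lower genes were listed in both libraries. Rpl13a, which in interferon-treated human monocytes leaves the ribosome to silence inflammatory mRNAs, was at 20.7 FPKM in the nucleolin IP and 103 FPKM in the IgG IP, from 1 and 2 reads. Rpl27 was at 65.7 FPKM in the nucleolin IP and 239 FPKM in the IgG IP, from 2 and 3 reads. Rpl15 and Rpl27a had 2 reads in each library, so their log2 ratios of -1.29 and -1.29 were those of equal reads. With 1 read set equal they turned to 0.028 and 0.050, and that of Rpl35a, -1.19 and not resolved in reads, to 0.16.

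The rest of this class lay within 2-fold. Rpl7 was at 164 FPKM in the nucleolin IP and 174 FPKM in the IgG IP (7 and 3 reads), and, from 6 and 2 reads each, Rpl9 was at 201 FPKM in the nucleolin IP and 162 FPKM in the IgG IP, and Rpl6 at 97.0 FPKM in the nucleolin IP and 80.7 FPKM in the IgG IP. Rpl7a, Rpl13 and Rpl14 had 3, 3 and 2 reads in the nucleolin IP, against 1, 2 and 1 in the IgG IP. Over all 33 resolved members, 20 had more reads in the nucleolin IP, 11 more in the IgG IP and 2 equal numbers. These raw numbers take no account of the larger scaling total of the nucleolin IP, 60896 fragments against 23669 in the IgG IP. Relative to the totals, the ratio of nucleolin to IgG reads of the members was 0.663. The same count by direction was not made over all genes. Only 5 members had 10 or more reads in all (Rplp0, Rpl3, Rpl7, Rpl8 and Rpl10), and 22 had 5 or fewer.

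**Figure D4:**
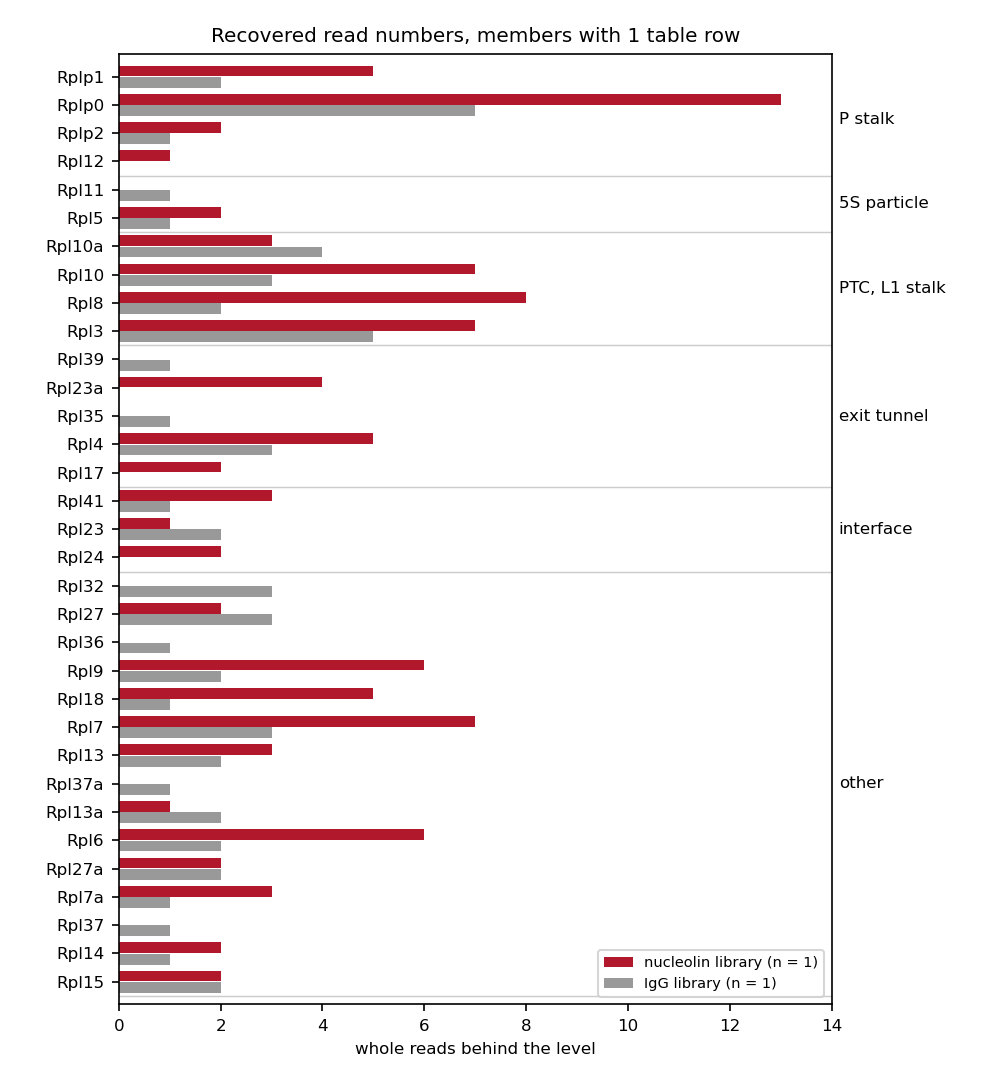
Whole reads behind the level of each of the 33 resolved members, nucleolin IP (upper, red bar) above IgG IP (lower, grey bar), 1 library each, grouped as in the plot of levels. Rplp0 has the longest bars, 13 and 7 reads, and most members have between 1 and 7 reads in a library.

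The length of the transcript differed between members listed in 1 library and those listed in both. The recovered lengths had a median of 898.5 bases (441 to 2019) for the 22 resolved genes in both libraries, of 504 bases (394 to 867) for the 7 listed in the IgG IP only and of 658.5 bases (559 to 775) for the 4 listed in the nucleolin IP only. The 7 held 9 IgG reads in all and the 4 held 9 nucleolin reads. Each resolved gene listed in 1 library only thus rested on 1 to 4 reads.

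The 15 unmeasured members were the 5 paralogues, all listed at 0 in both libraries, and 10 standard subunit genes. Among these 10, Rpl21, Rpl22, Rpl28, Rpl29, Rpl34, Rpl36a and Rpl38 were listed at 0 in both libraries, while Rpl26 was at 0.245 FPKM in the IgG IP only and Rpl30 at the trace level given above. Even on the full gene span, the Rpl26 value would be worth only 0.0160 of a read. These genes encode standard ribosome components, and a value of 0 says only how the table lists them. Ribosomal protein genes have many processed pseudogenes, and 201 pseudogenes are named after members in the RefSeq gene table. The 10 had a median of 4 such pseudogenes (1 to 15), and all 10 had at least 1; the 36 measured members had a median of 2 (0 to 24), and 29 had at least 1. Rpl21 had 15, and Rpl31, which was measured, had 24. How the table treats reads that match several genes is not given in the sources used here, but 7 near-identical histone H3 genes each held 0.125 of a read in the IgG IP. Whether sharing of reads bears on the genes at 0 was not tested.

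Ribosomal protein genes are known to carry small nucleolar RNAs (snoRNAs) in introns. Of the 51 members, 20 had at least 1 annotated snoRNA gene within their span, 40 snoRNA genes in all. Rpl4 had 5, and Rpl7a and Rpl13a had 4 each. Only the span was compared, not introns or strand, and the share over all genes was not counted. The 17 resolved members with a snoRNA gene in their span had 46 reads in the nucleolin IP and 29 in the IgG IP, a nucleolin share of 61.3% (49.4 to 72.4%). The 16 resolved members without a snoRNA had 58 reads in the nucleolin IP and 32 in the IgG IP, a share of 64.4% (53.7 to 74.3%). The intervals overlapped widely.

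Rpl36al, a large subunit gene outside the symbol rule, was at 57.9 FPKM from 1 read in the nucleolin IP and at 0 in the IgG IP. The small subunit genes encode the partners of these proteins in the ribosome. Of 34 genes listed, 32 were measured, where 13.4% of all gene symbols were. Of these, 18 were in both libraries, 7 in the nucleolin IP only and 7 in the IgG IP only. Over all genes compared these classes made up 16.8%, 37.1% and 46.0%. Of the 32, 8 were 2-fold or more higher in the nucleolin IP (25%, against 37.8% of all genes) and 14 that much lower (43.8%, against 56.7%), and the median log2 ratio was -0.58. Their summed FPKM ratio was 0.496, against 0.665 for the large subunit genes, a difference that was not tested. Their 25 resolved genes held 80 reads in the nucleolin IP and 39 in the IgG IP, a share of 67.2% (58.0 to 75.6%) that overlapped the interval of the large subunit genes. Rps10 and Rps13 were at 96.8 and 94.4 FPKM in the nucleolin IP from 2 reads each and at 0 in the IgG IP, while Fau and Rps28 were at 0 in the nucleolin IP and at 459 and 335 FPKM in the IgG IP.

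The factors that build the large subunit in the nucleolus were listed more sparsely than the ribosomal protein genes. Of 48 genes 16 were measured, where 13.4% of all gene symbols were. Only 1 was in both libraries, against 16.8% of all genes compared. In the nucleolin IP 11 were 2-fold or more higher (68.8%, against 37.8% of all genes) and 4 lower (25%, against 56.7%). The median log2 ratio of 2.82 rests on genes listed in 1 library only, 11 in the nucleolin IP and 4 in the IgG IP. Over all genes compared these classes made up 37.1% and 46.0%. The 14 resolved genes held 12 reads in the nucleolin IP and 6 in the IgG IP, a share of 66.7% (41.0 to 86.7%). Npm1, a nucleolar chaperone of ribosome assembly, was at 41.5 FPKM in the nucleolin IP and Nop16 at 21.9 FPKM, both at 0 in the IgG IP. Las1l, part of the enzyme that cuts the spacer between large subunit RNAs, and Eif6, which keeps new large subunits from joining early, were at 0 in the nucleolin IP and at 35.1 and 32.7 FPKM in the IgG IP.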

How the data were processed

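RNA from 1 nucleolin and 1 IgG immunoprecipitation was compared as FPKM values, per the file headers, which the authors deposited in 1 table. The tools named are FastQC 0.10.0 and Trimmomatic 0.32, with build mm10, per the submitters' processing notes, while for aligner and quantifier the sources used here give no name. The column headed with the nucleolin symbol was assigned to the library titled as nucleoplasmic RNA from the series' design text. Of 33529 rows, 56 without a symbol were left out and the rest summed per symbol. Genes at 1 FPKM or more in either library were compared as log2((nucleolin + 1) / (IgG + 1)), and values below 0.1 FPKM count as not listed. The members, the other gene lists and the rule for naming genes were chosen with earlier results of these data known. Under that rule, members at 1 FPKM or more, the paralogues, Ncl, Exosc10 and the cell type markers could be named. From each other list it took the 2 highest and 2 lowest log2 ratios.

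Reads were recovered from FPKM, which is proportional to reads / (total × (length − offset)). Total and offset were fitted on 11 of 14 single-exon genes, whose span is the transcript length, and on 144 genes with equal reads. The fitted totals were 60896.001 (nucleolin) and 23669.000 (IgG), the offsets 234 bases (nucleolin) and 203 bases (IgG). Read numbers had to give a whole-number length, within 0.0015 bases plus rounding error. The tolerance was wider below 700 bases in the nucleolin library (0.015, after a correction curve from 11 other genes) and below 440 bases in the IgG library (0.12, which touches Rpl36 and Rpl39). Where several numbers fitted, as for 100 non-member genes, the fewest were taken. The recovery was tested on simulated data. This step and its settings were chosen after seeing the data. Python 3.11.15, pandas 2.3.3, numpy 2.4.6, scipy 1.17.1 and matplotlib 3.10.9 were used, and sequences and gene positions come from RefSeq (GRCm38.p6), in which all 51 members were found. Some genes are not reported here by name.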

Additional observations from a re-analysis of the deposited data

How the results depend on the processing

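Other pseudocounts (0.1 and 10 FPKM), no minimum or one of 10 FPKM, the highest row per symbol and leaving out rows marked as copies left 4 or 5 members 2-fold or more above the IgG level and 15 as far below it, and the median log2 ratio of measured members between -0.51 and -0.38. Leaving out 14 members with a paralogue or with a pseudogene listed in the deposited table itself left 29 measured and a median of -0.58. Scaling changed the direction of the group by its construction, since it shifts all genes alike. Centred on all genes, 15 members lay above and 8 below, beside 40.2% and 46.5% of all genes. The median became 0.76, that over members in both libraries 0.96, and the log2 ratio of summed FPKM 0.68 in place of -0.59. With 1 read set equal the counts were 16 and 8, beside 40.6% and 46.9% of all genes, and the other values 0.85, 1.02 and 0.78. The sign of 10 single members changed when centred and of 12 with 1 read set equal, of which 9 had been within 2-fold. Of members past the 2-fold line, Rpl35a turned to 0.080 when centred and to 0.16 with 1 read set equal, and Rpl15 and Rpl27a to 0.028 and 0.050 with 1 read set equal. The nucleolin share of the members' reads was 62.8% without Rplp0 and 64.6% for members in both libraries, alternatives chosen after seeing the data. The share of other coding genes was 46.8 to 48.4% without the marker lists, without genes with several possible read numbers or without genes over 10 reads, and 59.9% for those listed in both libraries. No paired analysis was possible because each group has 1 library, and no library could be left out. Depth limits every single-gene comparison: 22 of 33 resolved members had 5 or fewer reads in all, and no interval of a member's FPKM ratio excluded 1.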

Other observations

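The mitochondrial ribosome has its own large subunit, built from nuclear-encoded Mrpl proteins. Of 47 such genes, 8 were measured, where 13.4% of all gene symbols were. None of the 8 was in both libraries, against 16.8% of all genes compared. The nucleolin IP alone listed 5 of them and the IgG IP alone 3. Over all genes compared these classes made up 37.1% and 46.0%. Whether the 8 genes differ from all genes in these shares was not tested. The 8 genes held 5 reads in the nucleolin IP and 4 in the IgG IP, a nucleolin share of 55.6% (exact interval 21.2 to 86.3%). Mrpl53 and Mrpl44 were at 42.5 and 13.8 FPKM in the nucleolin IP, 1 read each, and at 0 in the IgG IP. Mrpl18 and Mrpl54 were at 0 in the nucleolin IP and at 112 and 110 FPKM in the IgG IP, from 2 reads and 1 read.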
